A study of Sus scrofa domesticus with 36 samples.

Results

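Cytokines, chemokines and their receptors were described in backfat and loin muscle of young pigs. The genes were chosen by symbol: every row whose Ensembl identifier carries a pig symbol that starts with CCL, CCR, CXCL, CXCR, TNFSF or TNFRSF, or with IL followed by a digit. This rule found 92 of the 25322 genes in the count table, of which 43 had enough counts to be tested. Genes of the same families with other symbols (such as ACKR4, LIFR or FAS) fall outside the rule and are given as a separate list. The rule also takes in IL4I1, which is an amino acid oxidase and not a cytokine, so it is kept apart as "other".

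Cytokines are small secreted or membrane-held proteins by which cells of the immune system and of tissues signal to each other. Chemokines (CCL and CXCL) bind G protein-coupled receptors (CCR and CXCR) and direct the movement of leukocytes, most interleukins bind receptor chains that act through JAK kinases and STAT factors or through MYD88 and NF-kB, and TNF superfamily ligands bind trimeric receptors that recruit TRAF adaptors. In adipose tissue these genes are known from resident macrophages, lymphocytes and stromal cells, and in skeletal muscle from resident immune cells and from the fibres themselves.

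RNA was sequenced from subcutaneous backfat, taken from rib 8 back to the last rib, and from longissimus dorsi, a back muscle, of the same 18 pigs. The tissues are called adipose and muscle here, and each has 18 libraries, 1 per pig. The pigs are of a cross labelled Danbred 600 × Newsham NC32 in the protocol (the sample-level breed labels give other NC numbers after it), and were killed 3 weeks after weaning, although the age label reads 16 to 17 days and the stage label weaning. They were 9 pigs of low and 9 of higher growth from 1054 weaned pigs, but no label used here says which pig belongs to which class, so growth is not compared and both tissue groups hold both classes. All pigs were untreated as far as the labels say. Pigs are named as in their labels, such as Sample_731 for both libraries of that pig.

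Gene counts summed to between 2990913 and 5373406 per adipose library and between 4716541 and 6216459 per muscle library. Levels are given as CPM (counts scaled to a fixed library total) after trimmed-mean (TMM) scaling. This unit says nothing about transcript length, so levels are compared between samples and not between genes. Marker genes were checked against the tissue labels: 5 of 5 tested adipocyte markers were higher in adipose and 8 of 8 muscle fibre markers were higher in muscle. Some libraries stood apart. ACTA1, the actin of muscle fibres, ranged from 52.4 CPM in the adipose library of pig Sample_991 to 17526 CPM in that of pig Sample_731, and stood at 8155 CPM in pig Sample_391, 3792 in pig Sample_911 and 3433 in pig Sample_176. In muscle, ACTA1 was lowest in pigs Sample_735 (22408 CPM) and Sample_572 (25059 CPM). The share of reads outside annotated genes was highest in the adipose library of pig Sample_656 (53.8%) and, among muscle libraries, in pig Sample_572 (34.1%). The counts given next are 37 members higher in adipose and 3 in muscle both without pigs Sample_731, Sample_391, Sample_176 and Sample_911 and without pigs Sample_656, Sample_572 and Sample_735. The members tested differ between these fits. Without the first set of pigs, CCR3 and CXCR6 also passed the filter, and CCR3 was called higher in adipose (1.97). Without the second set, IL21R did not pass the filter, and IL6R was called higher in adipose (0.92).

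Most of the tested genes were higher in adipose than in muscle. By edgeR's quasi-likelihood test with Benjamini-Hochberg adjustment over 12542 genes, 36 of the 43 tested members were higher in adipose, where 46.7% of all genes were called that way. The 3 higher in muscle were TNFRSF12A, TNFRSF19 and IL17D, beside 39.2% of all genes. IL4R, IL6R, IL21R and IL4I1 did not pass. The median difference of the 43 members, adipose minus muscle, was 1.39 on the log2 scale, beside 0.14 for all genes tested, and within single pigs the members' median ran from 0.75 to 2.28. In bulk tissue, more cells of a type and more RNA per cell cannot be told apart. Scaling by library totals alone, without the TMM factors (mean 1.62 in adipose and 0.626 in muscle), moved the median of all genes from 0.14 to 1.505. Of all genes tested, 80.9% were then called higher in adipose and 12.1% in muscle. Under it 41 members were called higher in adipose and 2 in muscle, the members' median was 2.76, and 38 of the 43 members lay above the median of all genes, as against 39 with TMM scaling.

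A gene that is high in 1 tissue alone can pass the filter on low counts through that tissue, so counts over the 43 are a description. Of these genes, 32 members reached 1 CPM in at least 15 libraries of both tissues. Among them 27 were higher in adipose, 2 in muscle and 3 in neither, with a median difference of 1.32. Of the 11076 tested genes that met the same rule, 42.9% were higher in adipose and 41.5% in muscle, with a median of 0.03. Every adipose library lay above every muscle library for 9 of the 43 members, beside 14.8% of all genes tested. Those 9 were TNFSF9, TNFRSF1A, TNFRSF1B, IL33, IL17B, IL17RA, IL17RD, IL1R1 and IL1RAP, named after their values were seen. The reverse, every muscle library above every adipose library, held for TNFRSF12A alone, beside 17.6% of all genes. Of the 43 members, 25 were higher in adipose in all 18 pigs, beside 28.6% of all genes. Differences of at least 2-fold towards adipose were called for 30 members (27.3% of all genes) and of at least 4-fold for 13 (9.99%). Towards muscle, 2 members differed by at least 2-fold (20.9% of all genes). The same 2, TNFRSF12A and TNFRSF19, differed by at least 4-fold (9.22%).

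**Figure D1:**
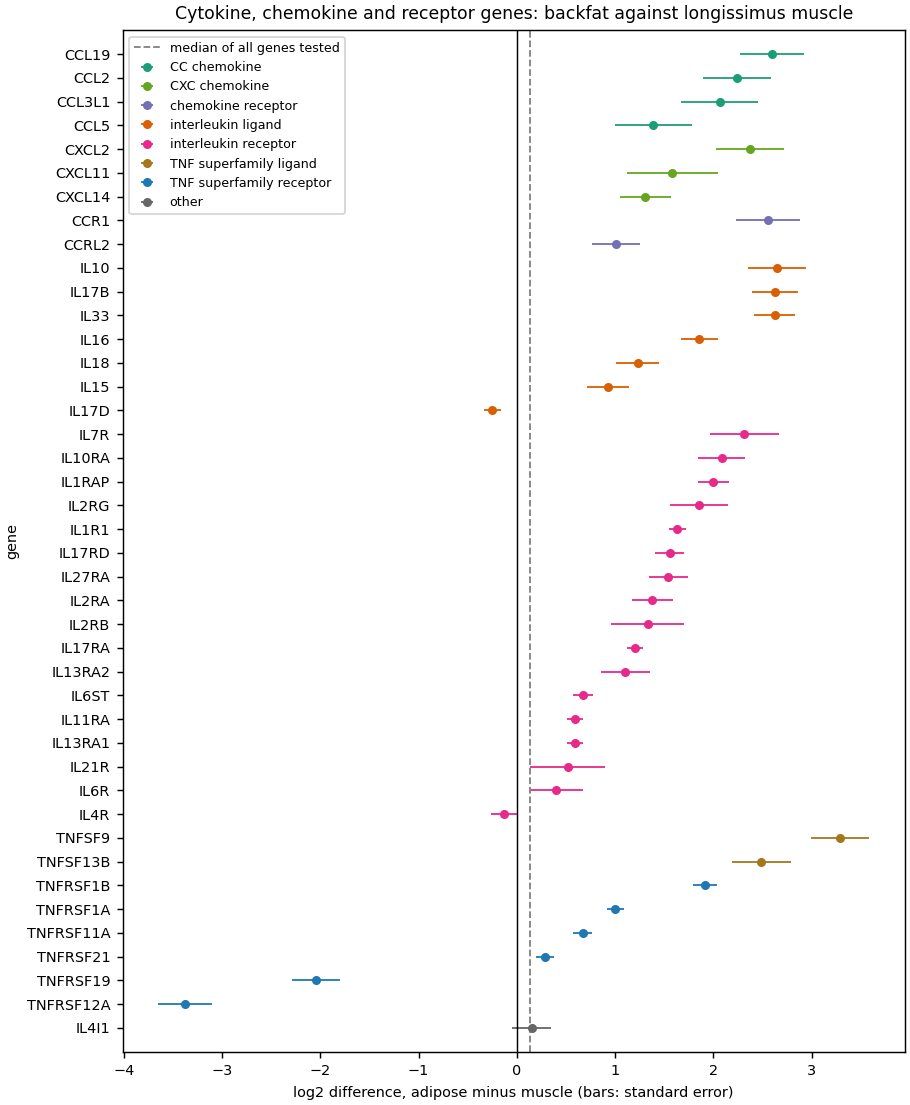
Difference between tissues of each of 42 tested genes, as adipose minus muscle on the log2 scale (x axis), with points coloured by role and bars for the standard error. The dashed line marks the median of all genes tested (0.14). TNFSF9 lies farthest towards adipose at 3.29 and TNFRSF12A farthest towards muscle at -3.38.

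The chemokines that passed the filter were all higher in adipose: 4 of 4 CC chemokines and 3 of 3 CXC chemokines, with medians of 2.15 and 1.58. CCL19, which draws T cells and dendritic cells through CCR7, ranged from 15.1 to 213 CPM in adipose (median 55.3) and from 1.67 to 21.9 CPM in muscle (median 8.95). It was higher in adipose in 18 of 18 pigs, by 2.60 (log2, SE 0.32; edgeR adjusted p = 2.37e-09), although the lowest adipose libraries fell within the muscle range. CCL2, the monocyte chemoattractant, was at 29.5 to 243 CPM in adipose (median 87.4) and at 1.34 to 82.3 CPM in muscle (median 16.3). It too was higher in adipose in 18 of 18 pigs, with a difference of 2.24 (SE 0.35; edgeR adjusted p = 2.38e-07). Muscle levels of CCL2 spread widely, with an SD of 1.34 on the log2 scale.

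CCL5, a chemokine of T and NK cells, was at 10.96 to 161 CPM in adipose (median 35.6) and 2.67 to 59.6 CPM in muscle (median 12.5). The ranges overlapped over most of the muscle range, and the difference was the lowest of the 4 CC chemokines, at 1.39 (SE 0.40; edgeR adjusted p = 0.00157; higher in adipose in 17 of 18 pigs). Of the members with a mean of 2 CPM or more, CCL5 was the most variable in muscle (SD 1.35 on the log2 scale). CCL3L1, a ligand of CCR1, had a median of 4.15 CPM in adipose and 0.753 CPM in muscle. Near-identical copies of the gene can share its reads, and how such reads were counted was not given in the sources used here. Its level is therefore uncertain.

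Among CXC chemokines, CXCL2, a neutrophil attractant, ranged from 4.20 to 35.7 CPM in adipose (median 11.7) and from 0.709 to 19.8 CPM in muscle (median 1.80). Its difference was 2.37 (SE 0.34; edgeR adjusted p = 6.62e-08), and it was higher in adipose in 17 of 18 pigs. It is also subject to shared reads with similar CXC genes. CXCL14, a chemokine made by many epithelial and stromal cells, was at 11.2 to 95.01 CPM in adipose (median 25.9) and 6.41 to 31.6 CPM in muscle (median 12.5), a difference of 1.31 (SE 0.26; edgeR adjusted p = 2.19e-05). CXCL11, an interferon-induced ligand of CXCR3, was at 0 in at least 1 library of each tissue and reached 30.5 CPM in adipose and 7.02 CPM in muscle. It was higher in adipose in 13 of 18 pigs (difference 1.58, SE 0.47; edgeR adjusted p = 0.00208), and it varied most among adipose libraries (SD 1.60 on the log2 scale).

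The chemokine receptors CCR1 and CCRL2 were higher in adipose. CCR1, a receptor of CCL3 and CCL5 on monocytes, was at 6.17 to 55.7 CPM in adipose (median 21.0) and 0.334 to 11.8 CPM in muscle (median 3.61), a difference of 2.55 (SE 0.33; edgeR adjusted p = 4.15e-09). It was higher in adipose in 18 of 18 pigs, and its ranges overlapped between tissues. CCRL2, which binds chemerin and does not signal as the classical receptors do, differed by 1.01 (SE 0.24; edgeR adjusted p = 0.000221), with adipose higher in 15 of 18 pigs. A further 8 chemokine receptors did not pass the filter on low counts.

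**Figure D2:**
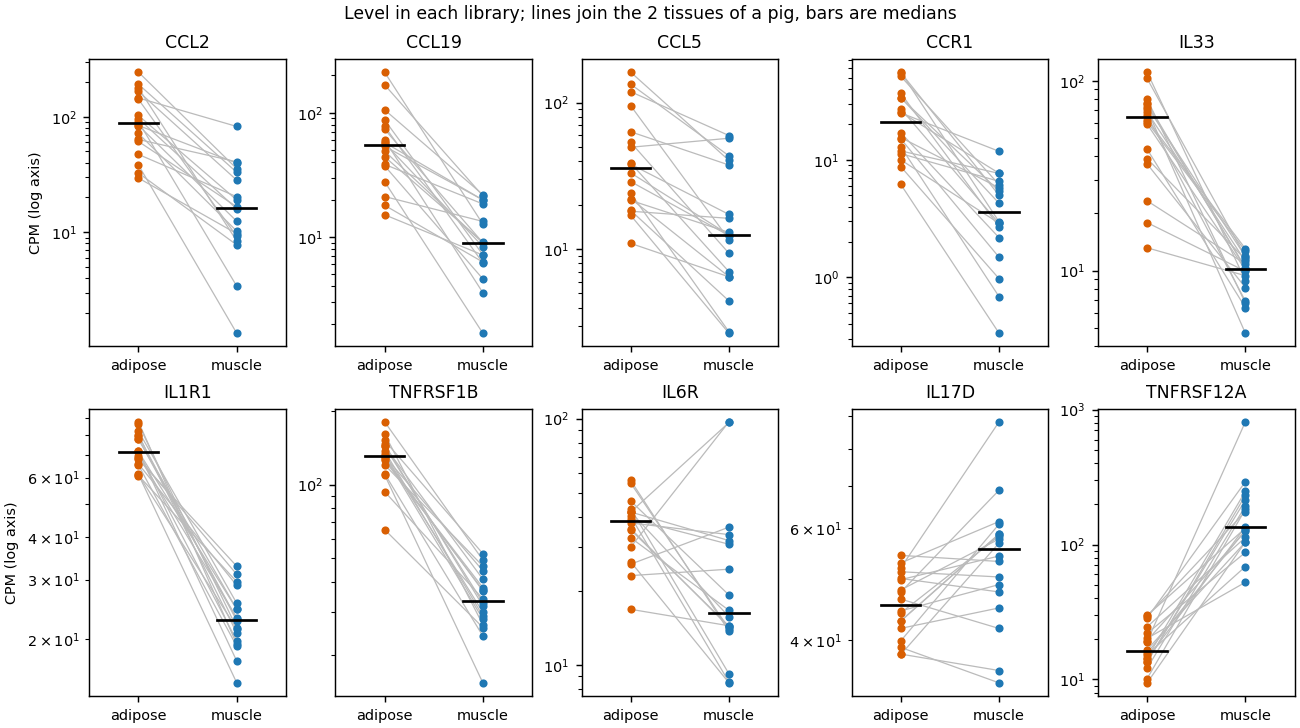
Level of 10 genes in each library, in CPM on a log axis that differs between panels; each line joins the adipose (left) and muscle (right) library of a pig and black bars are medians. IL1R1 and TNFRSF1B do not overlap between tissues, CCL5 and IL17D do, and 2 muscle libraries lie near 97 CPM for IL6R.

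Of 7 tested interleukins, 6 were higher in adipose and 1, IL17D, in muscle, with a median of 1.85. IL33, an alarmin of stromal cells that acts on regulatory T cells and innate lymphoid cells, was at 13.2 to 111 CPM in adipose (median 64.0) and 4.67 to 13.0 CPM in muscle (median 10.2). The lowest adipose library lay just above the highest muscle library, and the difference was 2.62 (SE 0.21; edgeR adjusted p = 1.91e-14). IL10, the anti-inflammatory cytokine, was at 1.51 to 7.42 CPM in adipose (median 3.69) and 0 to 2.30 CPM in muscle (median 0.495), a difference of 2.65 (SE 0.29; edgeR adjusted p = 1.22e-10).

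IL17B was at 4.32 to 16.9 CPM in adipose (median 7.98) and at no more than 3.19 CPM in muscle (median 1.52), a difference of 2.63 (SE 0.23; edgeR adjusted p = 2.55e-13). IL16, a lymphocyte chemoattractant that binds CD4, differed by 1.85 (SE 0.19; edgeR adjusted p = 1.24e-11), from a median of 17.0 CPM in adipose to 4.32 CPM in muscle. IL18, which inflammatory caspases release in active form, differed by 1.23 (SE 0.22; edgeR adjusted p = 3.56e-06). IL16, IL17B, IL18, IL10 and IL33 were higher in adipose in 18 of 18 pigs. IL15, a cytokine of NK and memory T cells that is also made by muscle fibres, was at 5.14 to 28.3 CPM in adipose (median 16.9) and 2.67 to 17.7 CPM in muscle (median 8.72). It was higher in adipose in 17 of 18 pigs, by 0.93 (SE 0.21; edgeR adjusted p = 0.000125).

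IL17D was the only tested interleukin called higher in muscle, and the difference was small and depended on the scaling. It was at 38.0 to 54.4 CPM in adipose (median 45.4) and 34.3 to 88.2 CPM in muscle (median 55.6), and the muscle libraries spanned the whole adipose range. The difference was -0.25 (SE 0.09; edgeR adjusted p = 0.00699; higher in muscle in 12 of 18 pigs). Scaled by library totals alone it was 1.13, towards adipose.

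Among the tested members, the TNF superfamily gave the largest difference in each direction. With no filter on low counts, some members with few counts lay farther towards adipose than TNFSF9 (3.32). These were IL20RA (5.21), IL1A (4.70), CCL27 (4.05), CCL28 (3.65) and IL31RA (3.43). Both tested ligands of the TNF superfamily were higher in adipose in 18 of 18 pigs. TNFSF9 (4-1BB ligand, a costimulator of T cells) was at 2.26 to 13.0 CPM in adipose (median 4.48) and 0 to 1.15 CPM in muscle (median 0.468), without overlap, a difference of 3.29 (SE 0.29; edgeR adjusted p = 3.64e-13). TNFSF13B (BAFF, the B cell survival factor) was at 3.23 to 17.2 CPM in adipose (median 8.29) and 0 to 5.47 CPM in muscle (median 1.18), a difference of 2.49 (SE 0.30; edgeR adjusted p = 1.01e-09). Of the 8 listed markers of B cells, 3 were found and none passed the filter, and their summed level was 0.620 to 20.8 CPM in adipose and 0 to 1.49 CPM in muscle.

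Of 6 tested TNF receptors, 4 were higher in adipose and 2 in muscle. TNFRSF1A, the broadly expressed TNF receptor, was at 86.3 to 144 CPM in adipose (median 118) and 32.1 to 75.9 CPM in muscle (median 60.2). TNFRSF1B, the TNF receptor of leukocytes and endothelium, was at 65.4 to 181 CPM in adipose (median 131) and 15.4 to 52.1 CPM in muscle (median 33.4). Neither overlapped between tissues, and the differences were 1.004 (SE 0.09; edgeR adjusted p = 5.37e-13) for TNFRSF1A and 1.91 (SE 0.12; edgeR adjusted p = 1.34e-17) for TNFRSF1B. TNFRSF11A (RANK, the receptor of the osteoclast factor RANKL) differed by 0.67 (SE 0.10; edgeR adjusted p = 4.18e-08; 18 of 18 pigs). TNFRSF21, a death receptor, had the smallest difference called towards adipose, at 0.28 (SE 0.09; edgeR adjusted p = 0.00514; 14 of 18 pigs).

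TNFRSF12A, the receptor of TWEAK (Fn14), ran the other way. It was at 52.5 to 813 CPM in muscle (median 134; mean 189 ± 169, SD, n = 18) and 9.43 to 29.8 CPM in adipose (median 16.1; mean 18.2 ± 6.42). The tissues did not overlap, muscle was higher in 18 of 18 pigs, and the difference was -3.38, a fold of 10.4 (SE 0.27 on the log2 scale; edgeR adjusted p = 3.16e-14). The muscle library of pig Sample_231 was far above the others at 813 CPM, followed by pig Sample_911 at 292 CPM. In adipose its highest levels were in pigs Sample_731, Sample_391 and Sample_911, which are among the 4 adipose libraries with most ACTA1. Pig Sample_176, the other of those 4, was below the adipose median at 14.4 CPM. The part of muscle RNA in these levels was not tested. Without those 4 pigs the difference was -3.50. TNFRSF19 (TROY), a receptor of the same family, was at 0.524 to 2.95 CPM in adipose (median 1.11) and 0.767 to 9.39 CPM in muscle (median 4.51). It was lower in adipose in 18 of 18 pigs (difference -2.04, SE 0.24; edgeR adjusted p = 7.01e-10), and its difference was -0.66 with scaling by library totals alone, where TNFRSF12A's was -1.93.

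Interleukin receptors formed the largest group: 14 of 17 tested were higher in adipose, none in muscle, and 3 did not pass, with a median of 1.33. Both chains of the IL-1 receptor were higher in adipose without overlap between tissues. IL1R1, the ligand-binding chain, was at 60.8 to 87.6 CPM in adipose (median 71.5) and 14.9 to 32.9 CPM in muscle (median 22.8), a difference of 1.64 (SE 0.08; edgeR adjusted p = 1.14e-20). IL1RAP, the accessory chain that IL1R1 shares with the IL-33 receptor, was at 4.83 to 13.3 CPM in adipose (median 9.46) and 1.15 to 4.69 CPM in muscle (median 2.03), a difference of 2.00 (SE 0.16; edgeR adjusted p = 1.04e-14). The IL-17 receptor chain IL17RA (difference 1.20, SE 0.09; edgeR adjusted p = 5.20e-16) and IL17RD (difference 1.55, SE 0.15; edgeR adjusted p = 2.12e-12) did not overlap either.

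IL10RA, IL2RG, IL7R and IL2RB were higher in adipose, and their ranges overlapped between tissues. IL10RA, the ligand-binding chain for IL-10, was at 10.5 to 78.3 CPM in adipose (median 31.5) and 3.42 to 21.9 CPM in muscle (median 7.18), a difference of 2.09 (SE 0.24; edgeR adjusted p = 3.66e-10). IL2RG, the gamma chain shared by the receptors of IL-2, IL-4, IL-7, IL-9, IL-15 and IL-21, was at 8.05 to 54.2 CPM in adipose (median 20.6) and 1.002 to 16.4 CPM in muscle (median 5.47), a difference of 1.85 (SE 0.29; edgeR adjusted p = 3.21e-07). IL7R differed by 2.32 (SE 0.35; edgeR adjusted p = 1.68e-07). These 3 genes were higher in adipose in 18 of 18 pigs. IL2RB, the beta chain of the IL-2 and IL-15 receptors, differed by 1.33 (SE 0.37; edgeR adjusted p = 0.00125; 17 of 18 pigs).

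IL6ST (gp130), the signalling subunit of the IL-6 family, was at 54.5 to 139 CPM in adipose (median 94.9) and 39.9 to 94.4 CPM in muscle (median 61.3), a difference of 0.67 (SE 0.10; edgeR adjusted p = 1.22e-07; 17 of 18 pigs). IL11RA and IL13RA1 each differed by 0.59 and were higher in adipose in 18 of 18 pigs. With library totals alone as the scale, these 3 differences moved with the median of all genes and stayed towards adipose. IL4R did not pass the test: its median was 45.6 CPM in adipose and 51.5 CPM in muscle (difference -0.13, SE 0.13; edgeR adjusted p = 0.348), and with library totals alone it was 1.22. IL21R, a receptor of B, T and NK cells, had medians of 2.06 CPM in adipose and 2.22 CPM in muscle (difference 0.52, SE 0.38; edgeR adjusted p = 0.202). IL4I1 was at medians of 3.47 and 3.09 CPM (difference 0.15, SE 0.20; edgeR adjusted p = 0.488).

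IL6R, the IL-6 binding chain, did not pass, and leaving out either of 2 pigs changed that call. It was at 16.8 to 56.1 CPM in adipose (median 38.5) and 8.46 to 97.2 CPM in muscle (median 16.2), and 14 of 18 pigs were higher in adipose. Among muscle libraries, pigs Sample_735 (97.2 CPM) and Sample_572 (96.5 CPM) stood far above the other 16, whose highest was 36.3 CPM. These are the 2 muscle libraries with least ACTA1, and the part of that in the level was not tested. The difference was 0.40 (SE 0.27; edgeR adjusted p = 0.158). With the pig as a replicate block it was 0.72 (edgeR adjusted p = 0.0173). It was 0.64 without pig Sample_572 (edgeR adjusted p = 0.0184), 0.65 without pig Sample_735 (edgeR adjusted p = 0.0156) and 0.92 without pigs Sample_656, Sample_572 and Sample_735 (edgeR adjusted p = 0.000119). Without pigs Sample_731, Sample_391, Sample_176 and Sample_911, which keeps both of the high muscle libraries, it was 0.08 (edgeR adjusted p = 0.793).

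The other 49 members did not reach the filter on low counts in enough libraries of either tissue, although CCR3 and IL12RB1 reached 1 CPM in at least 15 adipose libraries. IL9, IL17A, IL22 and IL24 had no counts in any of the 36 libraries. Without TMM scaling, this allows up to 0.0367 CPM over the adipose libraries and 0.0317 CPM over the muscle libraries. These limits are 3 counts of each tissue's total, for counting error only. The TMM factors (mean 1.62 in adipose and 0.626 in muscle) would lower the adipose limit and raise the muscle limit. IL6, the ligand of IL6R, had 3 counts over all adipose libraries and 0 in muscle, and CXCL8, the neutrophil attractant, had 1.5 and 0.5. The deposited table gives counts in steps of 0.5. Other members were seen in most part in adipose: IL1A had 134.5 counts in adipose and 4.5 in muscle, IL20RA 115.5 and 0.5, and CCL28 36 and 0. Among receptors of lymphocytes and granulocytes, CCR3 had 435.5 counts in adipose and 48 in muscle, CXCR6 364.5 and 132.5, CXCR3 319 and 63.5, and CCR7, the receptor of CCL19, 199.5 and 31. All these counts are unscaled. After TMM scaling CXCR6 averaged 2.65 CPM in adipose and 2.20 CPM in muscle. With no filter on low counts CXCR6 was not called (0.31, edgeR adjusted p = 0.504), while CCR3 (2.02), CXCR3 (1.19) and CCR7 (1.47) were called higher in adipose. CCL17 had 18 counts in adipose, of which 17.5 were in the library of pig Sample_242. After TMM scaling the mean level was higher in muscle for CXCR5, CCR9, IL5 and TNFRSF11B. With no filter on low counts, CXCR5 (4.5 counts in adipose and 8 in muscle) was called higher in muscle (-1.41; edgeR adjusted p = 0.0408), while CCR9 (-0.97), IL5 (-0.17) and TNFRSF11B (-0.11) were not called.

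Genes related to the members were read as 4 lists. Of 28 genes of the same families found under other symbols, 19 were tested, 16 were higher in adipose, 2 in muscle (CNTFR and FAS) and 1 in neither, with a median of 1.61. With library totals alone these counts became 18 higher in adipose and 1 in muscle, FAS turning from -0.93 to 0.47. ACKR4, which scavenges CCL19, CCL21 and CCL25, averaged 142 ± 45.4 CPM (SD, n = 18) over adipose libraries and 5.35 ± 4.25 CPM over muscle libraries. Its difference of 4.73 (SE 0.24; edgeR adjusted p = 1.90e-20) is larger than that of any of the 43 tested members. CNTFR, the ciliary neurotrophic factor receptor, averaged 24.5 ± 6.99 CPM over adipose libraries and 124 ± 52.4 CPM over muscle libraries, a difference of -2.34 (SE 0.17; edgeR adjusted p = 2.29e-15), and was higher in muscle in 18 of 18 pigs. LIFR, the leukaemia inhibitory factor receptor, differed by 0.50 (SE 0.11; edgeR adjusted p = 0.000118).

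The other 3 lists hold downstream genes, and their counts stand beside the 46.7% of all genes called higher in adipose, the 39.2% called higher in muscle and the median of 0.14. Of 14 tested JAK-STAT genes, 7 were higher in adipose, 4 in muscle and 3 in neither (median 0.28). STAT5A (-0.45) and PTPN11 (-0.91) were higher in muscle. Of 26 tested NF-kB and IL-1 receptor signalling genes, 15 were higher in adipose and 9 in muscle (median 0.74). NFKBIA, the NF-kB inhibitor, differed by 1.32 and was higher in adipose in 18 of 18 pigs, while the adaptor TAB2 (-1.28) and NFKB2 (-0.76) were higher in muscle. Of 10 tested genes of chemokine receptor signalling, 7 were higher in adipose and 1, the receptor kinase GRK2 (-0.98), in muscle, and the G protein subunits GNAI2 (1.07) and GNAI3 (1.76) were among the 7. These directions depend on the scaling: with library totals alone none of the genes of these 3 lists was called higher in muscle, and 13 of 14, 24 of 26 and 10 of 10 were called higher in adipose.

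The tested markers of leukocytes were also higher in adipose. The 8 tested macrophage markers were all higher in adipose, with a median of 2.26 and a summed level of 219 to 988 CPM in adipose and 44.4 to 295 CPM in muscle. All 8 tested T and NK cell markers were higher in adipose too (median 1.55), summed to 47.6 to 278 CPM in adipose and 9.90 to 88.0 CPM in muscle. Both tested granulocyte markers and both mast cell markers were higher in adipose, as were 5 of 6 endothelial markers (6 with library totals alone) and 7 of 8 fibroblast and progenitor markers (8 with library totals alone). Of 3 tested keratinocyte markers none was higher in adipose and 1 was higher in muscle (2 and 1 with library totals alone), and of 2 tested erythroid markers 1 was higher in adipose. No marker that was found was at 0 throughout a tissue. The part of these cells in the differences of the members was not tested.

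Within a tissue, the members could be set against the macrophage markers of the same library. The macrophage marker level is the mean of the 8 markers' log2 CPM, each in SD units over the 18 libraries of a tissue. In adipose, 11 of 44 members with at least 1 CPM in at least 15 libraries rose with it and none fell (Spearman, 100000 permutations, two-sided, Benjamini-Hochberg over 12594 genes). Of all genes, 3.41% rose with it and 3.83% did so in either direction, and the median rho was 0.35 for the members and 0.02 for all genes. Among the highest were IL10RA (rho 0.909), CCRL2 (0.837), IL10 (0.831) and IL18 (0.831). For IL10RA the permutation p was 1e-05, the smallest that these permutations can give (adjusted p = 0.00247), Pearson's r was 0.877, and r was 0.793 without the 2 pigs farthest from the median marker level. Also called were TNFSF13B (0.825), IL7R (0.798), IL2RG (0.792), CCR1 (0.771), IL16 (0.756) and CCR3 (0.723).

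Other adipose genes did not pass this test. CCL5 had a rho of 0.692 (permutation adjusted p = 0.0506), and CCL2, the monocyte attractant, had 0.352, CCL19 0.166 and IL33 -0.224. IL1R1 (-0.569) and TNFRSF11A (-0.534) had the lowest values and did not pass either.

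In muscle, 6 of 33 members rose with the marker level and none fell, beside 1.16% of 11695 genes that rose and 1.27% in either direction (median rho 0.16 for the members and -0.07 for all genes). They included IL10RA (0.878), IL2RG (0.853), CCL5 (0.843), IL2RB (0.822) and CCR1 (0.783). For IL10RA, r was 0.898 and was 0.873 without the 2 farthest pigs (permutation adjusted p = 0.00377 for rho). IL10RA, IL2RG and CCR1 were among those called in both tissues. Without pigs Sample_656, Sample_572 and Sample_735, with 15 pigs left, 3 members were called in adipose and 3 in muscle, where IL10RA's rho was 0.871 and 0.875. The macrophage marker level itself rose with the T and NK cell marker level in adipose (rho 0.833, permutation adjusted p over 6 relations = 0.000240; r 0.715, or 0.726 without the 2 farthest pigs) and in muscle (rho 0.756, adjusted p = 0.00156; r 0.729, or 0.714). Its rho with the fibroblast marker level was 0.183 in adipose and 0.404 in muscle, and with the muscle fibre marker level -0.150 and -0.286, none of which passed.

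**Figure D3:**
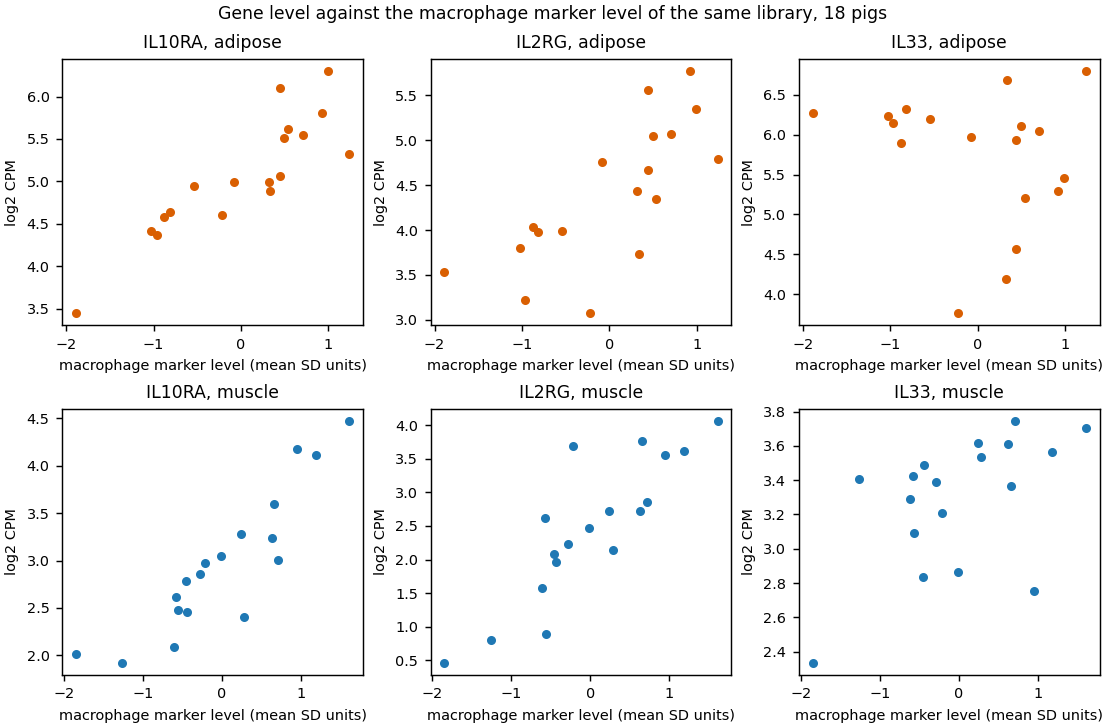
Level of IL10RA, IL2RG and IL33 (log2 CPM, y axis) against the macrophage marker level of the same library (mean SD units, x axis) in adipose (top row) and muscle (bottom row); each point is a pig. IL10RA and IL2RG rise with the marker level in both tissues, with rho from 0.792 to 0.909, while IL33 has a rho of -0.224 in adipose.

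**Figure D4:**
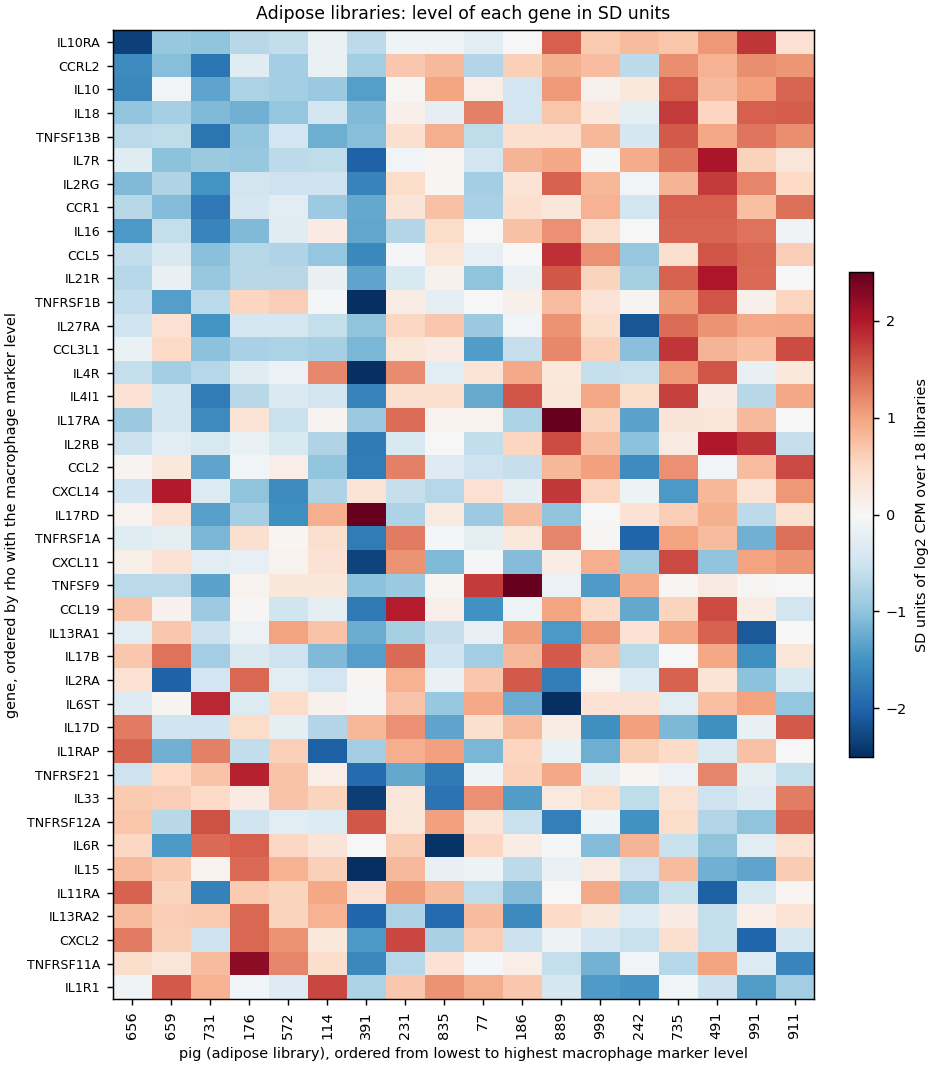
Adipose level of 41 tested genes in each pig, as log2 CPM in SD units over 18 libraries (red high, blue low), with pigs ordered by macrophage marker level and genes by their rho with it. The top rows run from blue to red with the marker level, while pig Sample_391 is blue in most rows.

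Single pigs stood low or high across many of these genes. How often each pig was lowest or highest over all genes was not counted, so these ranks may not be particular to the members. In adipose, pig Sample_391 was the lowest of 18 for 14 of the 43 tested members and among the 3 lowest for 29, and pig Sample_731 was among the 3 lowest for 20. These are the 2 adipose libraries with most ACTA1, and pig Sample_391 also had the lowest summed T and NK cell markers (47.6 CPM). They had the lowest TMM factors in adipose too (1.357 for pig Sample_391 and 1.393 for pig Sample_731). Pigs Sample_911 and Sample_176 had the next most ACTA1. Pig Sample_911 was among the 3 highest for 13 members and the 3 lowest for 2, and pig Sample_176 for 7 and 5. The part of muscle RNA in these levels was not tested. Pig Sample_491 was among the 3 highest for 18 members, pig Sample_889 for 17 and pig Sample_735 for 15. In muscle, pig Sample_731 was lowest for 12 of 32 members and had the lowest summed macrophage markers (44.4 CPM), and pig Sample_889 was highest for 8 and had the highest (295 CPM).

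Whether a pig with a high level in adipose also had a high level in muscle was tested over the 18 pigs for the 32 members at 1 CPM or more in at least 15 libraries of each tissue. By Spearman's rho with 100000 permutations and Benjamini-Hochberg adjustment over 11109 genes, 0 members were called, beside 0.558% of all genes. At an unadjusted permutation p under 0.05, 8 members passed, beside 14.3% of all genes. Of the members, 26 had a positive rho and the median was 0.35, beside 75.0% positive and a median of 0.18 over all genes. Among the highest were CCL5 (rho 0.676, permutation p = 0.00277, adjusted p = 0.108), IL2RG (0.643, adjusted p = 0.135), IL10RA (0.622), TNFRSF1A (0.616) and TNFRSF11A (0.523).

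By Pearson's r, 3 members passed after adjustment, CCL5 (r 0.732, permutation adjusted p = 0.0403) and IL10RA (r 0.732, adjusted p = 0.0356) among them. Without the 2 pigs farthest from the median adipose level, r was 0.656 for CCL5 and 0.616 for IL10RA. With the adipose ACTA1 level removed, rho was 0.356 for CCL5, 0.348 for IL10RA and 0.412 for IL2RG. It was 0.606 for TNFRSF1A and 0.562 for TNFRSF11A. TNFRSF1A had an r of 0.300, well below its rho of 0.616 before that removal.

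**Figure D5:**
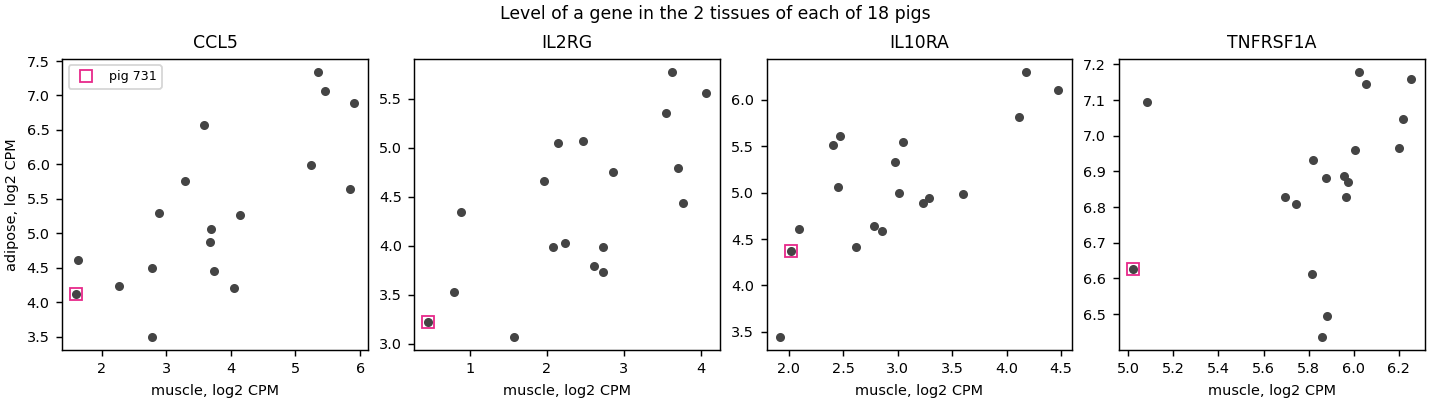
Level of CCL5, IL2RG, IL10RA and TNFRSF1A in muscle (x axis) and adipose (y axis) of each of 18 pigs, as log2 CPM, with pig Sample_731 marked by a square. CCL5, IL2RG and IL10RA run from low in both tissues to high in both (rho 0.676, 0.643 and 0.622), with pig Sample_731 at or near the low end.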

How the data were processed

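Libraries were made from total RNA with a TruSeq RNA kit and read as paired ends of 100 bases, per the labels' protocols. The deposited table of the authors holds expected counts (35.1% of values are not whole, in steps of 0.5) per Ensembl gene. GSNAP and HTSeq are named, with no versions, in the submitters' processing notes. Genome build and strand setting were not given in the sources used here, and overlapping and antisense genes cannot be told apart. The 5 lines that name no gene were left out of totals and tests. Of the IDs, 11804 had a symbol.

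Counts were rounded to whole numbers, filtered (filterByExpr by tissue, 12542 genes) and fitted with edgeR 4.0.16 (TMM, quasi-likelihood) in R 4.3.3, without the pig as a block. Calls are at a Benjamini-Hochberg adjusted p of 0.05. Correlations used log2 CPM with a prior count of 2 (Python 3.11.15, SciPy 1.17.1). The fits were tested on simulated data. Libraries with the same number come from 1 pig; deviations from tissue means correlated at 0.0973 to 0.359 within pigs. Alternatives were DESeq2 1.42.0, other scalings, no filter, the block and left-out pigs; leaving out pigs Sample_656, Sample_572 and Sample_735 in the tissue comparison was chosen after seeing the data.

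The members and lists were chosen with earlier results of these data known. Members are named where they were among the 12 with the largest differences per direction, the 4 highest of a role, the 6 most alike between tissues, the 5 nearest the macrophage level or the 4 most variable, and list genes where they had the most counts of their list; IL1R1, IL1RAP, IL17RA, IL17RD and IL6R were named after their values were seen, as were the low-count members singled out. P-values measure spread between pigs. Some members and list genes that were tested are counted but not reported here by name.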

Additional observations from a re-analysis of the deposited data

How the results depend on the processing

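Among the 43 tested members, 36 were called higher in adipose and 3 in muscle, and these counts were the same with DESeq2's test and with its size factors. Leaving out each pig in turn, which can change the members that pass the filter, gave 36 to 37 in adipose and 3 in every case in muscle. The median difference was then 1.31 to 1.54, and over all genes there were 5803 to 5947 calls in adipose and 4810 to 4940 in muscle. With the pig as a replicate block, 37 members were higher in adipose and 3 in muscle; the block changed the call of IL6R and of no other tested member. With no filter on low counts, 62 members and 9077 genes were higher in adipose, and 4 members and 5805 genes in muscle. The number of genes tested in that fit is not given here, so these counts carry no share. With library totals alone, 10148 genes were higher in adipose and 1520 in muscle, the members' median was 2.76, and IL17D (1.13) and IL4R (1.22) turned towards adipose.

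Between tissues, Pearson's r called 3 members and 209 genes and library totals 1 member (IL13RA1) and 395 genes, against 0 and 62 by rho; removing the adipose ACTA1 level or leaving out pigs Sample_656, Sample_572 and Sample_735 left 20 genes each. Between-tissue rho changed sign for CXCL14 (to -0.0464) and IL4R (to -0.0679) without those 3 pigs, for IL4R (to -0.222) and IL6R (from -0.214 to 0.102) with ACTA1 removed, and for IL33 (to -0.0405) by r. Genes that followed the macrophage level fell to 3 members and 0.778% of all genes in adipose and to 3 members and 0.581% in muscle without those 3 pigs, and with library totals came to 14 and 8 members and 6.74% and 3.34% of all genes, against 11 and 6 members; Pearson's r called 10 and 8. The cause of these changes was not tested. Depth limits the 49 members with few counts, which were left out of the filtered test.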
